A study of Mus musculus with 8 samples.

Results

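The epidermal growth factor (EGF) family was followed across the 3 sorted cell groups of the study through 10 genes chosen by symbol. These are the ligand genes Egf, Tgfa, Areg, Ereg, Hbegf and Btc, the receptor genes Egfr, Erbb2 and Erbb3, and Lrig1, whose product restrains the receptors. All 10 were found among the 24013 gene symbols of the expression table, and 9 passed the filter for testing (at least 1 FPKM in at least 2 of the 8 libraries), Ereg being the exception. The mice carried Lyz1CreER and R26R-tdT on a mixed C57/BL6 and 129 background, were 8 to 14 weeks old, and all received 1 dose of 10 mg tamoxifen. Lyz1 is the lysozyme gene of Paneth cells, and the Cre enzyme driven from it works only once tamoxifen is given. Cells with Lyz1 activity at that time then make tdTomato, a red fluorescent protein, and pass this label on to their descendants. Sorted cells excluded DAPI, lacked the blood cell protein CD45, and carried the epithelial protein EpCAM and tdTomato, and were divided by the surface protein CD24, which marks Paneth cells, the antimicrobial secretory cells of the crypt base. RNA was sequenced from 3 libraries of CD24− cells of irradiated mice (labelled derivatives outside the Paneth gate), 3 of CD24+ cells of irradiated mice (the Paneth gate) and 2 of CD24+ cells of non-irradiated mice. Irradiated mice were sampled 5 days after radiation. No comparison isolates irradiation within the CD24− gate, since labelled CD24− cells without irradiation were not analysed here. No label says whether libraries came from separate mice or from pools, so the p-values take in the spread among these libraries alone, which may be technical.

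EGF family ligands are made as membrane-bound precursors and released by cell-surface proteases. Those followed here bind the receptor kinase Egfr, which pairs with itself or with other ErbB receptors. Erbb2 has no ligand of its own and Erbb3 signals mainly through its partners. Bound receptors feed the RAS-ERK and PI3K-AKT cascades. In the intestinal crypt Paneth cells are a known source of Egf for the neighbouring stem cells, Areg and Ereg are known for their rise during epithelial repair, and Lrig1 is also used as a marker of stem and progenitor cells.

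The groups followed their labels. Lyz1 averaged 1258 ± 1162 FPKM in the irradiated CD24− group, 33888 ± 2497 in the irradiated CD24+ group and 33954 ± 21126 in the non-irradiated CD24+ group (SD, n = 3, 3 and 2), and Cd24a, the gene of the sorted protein, averaged 77.4 ± 39.9, 698 ± 44.7 and 642 ± 29.9 FPKM in the same groups. FPKM is a fragment count divided by transcript length and by sequencing depth, and its sum over genes ranged from 540467 to 582799 in the CD24− libraries and from 1329221 to 1638347 in the CD24+ libraries. The table gives no fragment numbers; the smallest steps between low values put them at approximately 34800000 to 45200000 per library. Non-irradiated replicate 1 stood apart, with 9362 genes at 1 FPKM or more against 10293 to 10697 in the other 7 libraries and a median-of-ratios factor (the typical level of its genes relative to all libraries) of 0.521, where the remaining CD24+ libraries had 0.842 to 0.952. For irradiated CD24−, irradiated CD24+ and non-irradiated CD24+ libraries, summed FPKM of 12 enterocyte markers ran from 18819 to 41365, from 870 to 1458 and from 536 to 2610, with no marker at 0. Sums of 10 of 11 listed immune markers stayed between 0.770 and 4.46 FPKM in every library, with Emr1 at 0 throughout. In bulk libraries of sorted cells, a change in how many cells of a kind were present and a change in RNA per cell cannot be told apart.

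RefSeq promoter windows, 250 bases before to 50 bases after the annotated start, were found for 7 of the 10 genes. The windows below belong to the 4 tested members that differed between the irradiated gates and have an entry, and to Areg, the member with the widest spread between libraries. Coordinates are those of GRCm38.p6, not of the mm9 build used for the expression values, and capitals mark matches to the letters searched on both strands.
Egf, chr3:129755273-129755572, minus strand: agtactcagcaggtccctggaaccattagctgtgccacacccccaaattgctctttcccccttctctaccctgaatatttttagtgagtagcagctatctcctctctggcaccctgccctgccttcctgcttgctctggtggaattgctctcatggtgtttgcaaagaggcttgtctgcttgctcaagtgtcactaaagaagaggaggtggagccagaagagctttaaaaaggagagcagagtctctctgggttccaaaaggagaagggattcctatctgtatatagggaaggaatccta
Lrig1, chr6:94700096-94700395, minus strand: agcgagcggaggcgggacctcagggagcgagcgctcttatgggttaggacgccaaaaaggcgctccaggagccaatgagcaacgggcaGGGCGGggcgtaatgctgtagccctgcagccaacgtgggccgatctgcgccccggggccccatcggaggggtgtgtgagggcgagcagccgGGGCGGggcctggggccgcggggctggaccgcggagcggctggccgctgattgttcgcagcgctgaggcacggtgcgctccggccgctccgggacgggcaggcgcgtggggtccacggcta
Tgfa, chr6:86194972-86195271, plus strand: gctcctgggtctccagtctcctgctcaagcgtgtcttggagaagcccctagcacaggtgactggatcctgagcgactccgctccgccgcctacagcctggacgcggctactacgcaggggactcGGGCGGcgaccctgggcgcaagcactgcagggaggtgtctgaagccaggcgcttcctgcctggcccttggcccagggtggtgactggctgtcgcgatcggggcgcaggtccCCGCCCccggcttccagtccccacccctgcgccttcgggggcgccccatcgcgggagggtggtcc
Erbb2, chr11:98412234-98412533, plus strand: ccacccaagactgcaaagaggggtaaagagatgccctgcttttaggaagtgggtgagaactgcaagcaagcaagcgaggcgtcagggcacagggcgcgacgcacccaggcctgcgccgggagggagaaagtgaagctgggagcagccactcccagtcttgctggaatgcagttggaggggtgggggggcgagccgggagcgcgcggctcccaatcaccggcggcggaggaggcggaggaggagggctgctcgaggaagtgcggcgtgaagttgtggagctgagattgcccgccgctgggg
Areg, chr5:91139349-91139648, plus strand: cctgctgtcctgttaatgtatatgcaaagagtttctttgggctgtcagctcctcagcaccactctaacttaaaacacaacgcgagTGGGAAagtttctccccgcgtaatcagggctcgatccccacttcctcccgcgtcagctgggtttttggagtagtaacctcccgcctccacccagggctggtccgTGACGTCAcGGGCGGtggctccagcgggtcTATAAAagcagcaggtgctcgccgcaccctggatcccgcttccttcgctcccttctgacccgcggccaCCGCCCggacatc
The Egf window held no CpG pair and 49.0% G or C, against a median of 7 CpG pairs and 52.7% over all 32851 windows. The Lrig1 window was at the other end, with 35 CpG pairs and 73.0% G or C. Tgfa and Erbb2 had 24 and 21 CpG pairs and 70.7% and 66.0% G or C, and Areg had 21 and 59.3%. The motifs searched were the AP-1 site TGANTCA, the cAMP response element TGACGTCA, the GC box GGGCGG, the TATA box TATAAA and the RBPJ site TGGGAA, which are present in 7.81%, 1.79%, 35.7%, 13.6% and 25.6% of all windows. Areg held the cAMP response element 61 bases before the start, the TATA box 31 bases before it, an RBPJ match at position -165 and 2 GC box matches. Lrig1 and Tgfa held 2 GC box matches each, and none of the motifs was in the Egf or Erbb2 window. A second RefSeq window for Egf, further into the gene, is not shown. A match is a description of letters only.

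FPKM is scaled to length, so levels can be ordered between genes. In irradiated CD24− cells the receptor genes Erbb3 (79.2 ± 11.6 FPKM, SD, n = 3) and Erbb2 (37.3 ± 5.35) led the family, followed by Lrig1 (12.7 ± 4.42), Areg, Hbegf, Tgfa, Egfr (5.69 ± 1.88), Btc, Ereg and, last, Egf (0.2002 ± 0.135). From Areg to Egfr neighbours in that order lay within each other's spread. In irradiated CD24+ cells Lrig1 (25.8 ± 2.003) stood first and Erbb3 (21.7 ± 3.97) second, with overlapping libraries, and Erbb2 (8.89 ± 1.98) came next. Egfr, Tgfa and Egf followed between 2.99 and 3.43 FPKM, within each other's spread, and Btc, Areg and Hbegf between 1.29 and 1.66. In non-irradiated CD24+ cells the order again began with Lrig1 (18.3 ± 3.35, n = 2), Erbb3 (15.5 ± 2.84) and Erbb2 (5.59 ± 2.15), and Egf (4.39 ± 1.37) followed as the first ligand. Egf was thus the highest-ranked ligand of non-irradiated Paneth-gate cells and the lowest-ranked of all 10 genes in the CD24− group.

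**Figure D1:**
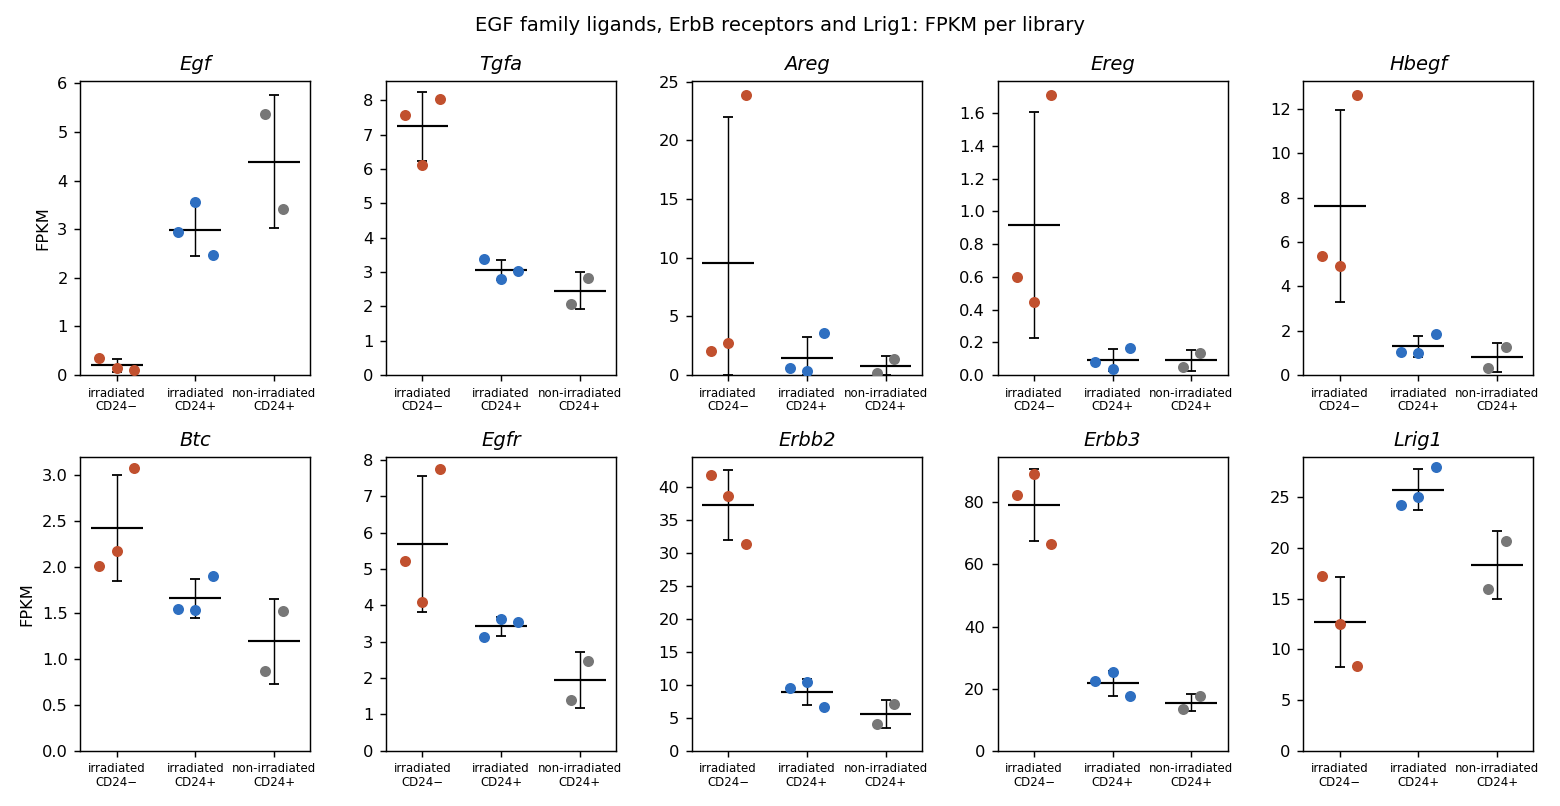
FPKM of the 10 genes, 1 panel per gene with its own axis starting at 0. Points are libraries (irradiated CD24−, n = 3; irradiated CD24+, n = 3; non-irradiated CD24+, n = 2), horizontal lines are group means and bars are SD, truncated at 0 where the mean is smaller than the SD. Egf lies lowest in every CD24− library and Lrig1 has its lowest mean there, whereas Tgfa, Ereg, Hbegf, Btc, Egfr, Erbb2 and Erbb3 lie above both CD24+ groups in every CD24− library, and 1 CD24− library carries Areg at 23.9 FPKM. The share of all genes that separate in this way was not counted. Of all tested genes, 48.6% were called higher in irradiated CD24− than in irradiated CD24+ cells.

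The first comparison set the labelled derivatives against the Paneth gate within irradiated mice, which asks how labelled cells outside the gate differ from those in it. Whether the CD24− cells had once been in the gate was not tested. The ligand genes differed in direction: Egf fell 14.9-fold in mean FPKM, while Tgfa and Hbegf rose 2.36-fold and 5.93-fold. The receptor genes Erbb2 and Erbb3 rose 4.20-fold and 3.65-fold, and the restraining Lrig1 fell 2.03-fold. Of the 9 genes tested, limma called 4 higher and 2 lower in CD24− cells at an adjusted p under 0.05, and 3 (Areg, Btc and Egfr) were not called. Among all 11190 genes tested, 48.6% were called higher and 7.27% lower, so 4 of 9 higher is close to the share of all genes, and the median log2 fold change was 1.02 over the 9 genes and 0.51 over all genes. In this paragraph and those that follow, log2 fold changes are of FPKM + 1, which understates the change of genes near or below 1 FPKM, ± is followed by the moderated standard error (SE) where so marked, and adjusted p is over all genes tested in the fit. Overlap between groups is described for single genes, and the share of all genes without overlap was not counted.

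Egf, the ligand that gives the family its name, stood at 0.355, 0.140 and 0.105 FPKM in irradiated CD24− replicates 1, 2 and 3, against 2.94, 3.56 and 2.47 FPKM in irradiated CD24+ replicates 1, 2 and 3. All CD24− libraries were far below all CD24+ libraries. The log2 fold change was -1.73 ± 0.19 (SE, adjusted p = 2.97e-05), and -3.44 with a pseudocount of 0.1 in place of 1. As a share of its mean in irradiated CD24+ cells, Egf was at 11.9%, 4.68% and 3.52% in CD24− replicates 1, 2 and 3. The summed FPKM of 15 Paneth markers was at 7.48%, 2.04% and 1.06% on the same scale and Lyz1 at 7.60%, 2.40% and 1.13%, so the 3 libraries had the same order for Egf and for Paneth transcripts. Their part in the remaining Egf was not tested. The Egf values of the CD24− libraries correspond to approximately 71, 23 and 21 fragments, so their order rests on few reads. The kit kept no strand. In the GENCODE annotation 6330410L21Rik overlaps an Egf exon on the opposite strand, and it stood at no more than 0.195 FPKM in any library. This ceiling is of the size of the Egf values in the CD24− libraries, and unstranded reads of the overlap cannot be told apart. Genes without values here also overlap on the opposite strand: Gm42697 for Egf, Gm43917 for Tgfa and Gm19610 for Ereg.

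Tgfa, which encodes transforming growth factor alpha, another ligand of Egfr, stood at 7.57, 6.11 and 8.04 FPKM in CD24− cells, against 3.37, 2.78 and 3.04 FPKM in irradiated CD24+ cells. The groups did not overlap, and the log2 fold change was 1.02 ± 0.18 (SE, adjusted p = 0.000592). Hbegf, the heparin-binding ligand, stood at 5.36, 4.92 and 12.6 FPKM in CD24− cells, against 1.04, 0.984 and 1.83 FPKM in irradiated CD24+ cells. Again every CD24− library was above every CD24+ library, with replicate 3 the highest of each gate. Its log2 fold change was 1.83 ± 0.32 (SE, adjusted p = 0.000607), and 1.44 without CD24− replicate 3 (adjusted p = 0.000303).

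Areg, the amphiregulin gene, varied more between replicates than any other member. It stood at 2.05, 2.68 and 23.9 FPKM in CD24− cells, against 0.562, 0.353 and 3.53 FPKM in irradiated CD24+ cells. Replicate 3 was the highest of each gate, and its CD24+ value lay above CD24− replicates 1 and 2, so the groups overlapped. The log2 fold change of 1.62 ± 0.71 (SE) was not called (adjusted p = 0.0727), and it was 0.66 without CD24− replicate 3 (adjusted p = 0.210) and 2.17 without CD24+ replicate 3 (adjusted p = 0.0185). Within each replicate number the CD24− value was the higher. In a limma fit of the 6 irradiated libraries with replicate number as a block, Areg was called higher (adjusted p = 0.000207). That fit was added after the data were seen, and no label ties a replicate number to a mouse. Ereg, the epiregulin gene, stood at 0.599, 0.447 and 1.71 FPKM in CD24− cells, against 0.0769, 0.0338 and 0.167 FPKM in irradiated CD24+ cells. The groups did not overlap and replicate 3 was again the highest of each gate, but Ereg was below the filter and had no test in the main fit. Btc, the betacellulin gene, stood at 2.01, 2.18 and 3.08 FPKM in CD24− cells, against 1.54, 1.52 and 1.90 FPKM in irradiated CD24+ cells. The groups did not overlap, yet the log2 fold change of 0.36 ± 0.18 (SE) was not called (adjusted p = 0.122) and lay below the median of all genes.

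CD24− replicate 3, the highest CD24− library for Tgfa, Areg, Ereg, Hbegf, Btc and Egfr, also differed from CD24− replicates 1 and 2 in its cell markers. Summed FPKM of 13 enteroendocrine markers was 560, 1667 and 3928 in CD24− replicates 1, 2 and 3, and 378, 1295 and 1481 in irradiated CD24+ replicates 1, 2 and 3. Enterocyte markers summed to 18819, 25222 and 41365 FPKM in the CD24− replicates, 9 goblet markers to 11453, 10524 and 6102 FPKM and 8 stem cell markers to 475, 336 and 67.6 FPKM. The 9 stromal markers summed to 4.04, 11.8 and 43.6 FPKM in the CD24− replicates, against 1.93, 6.16 and 10.4 FPKM in the irradiated CD24+ replicates. Of these markers 8 were under 1 FPKM in all 3 CD24− libraries, among them Col1a2, Acta2, Des and Lum at 0. Most of the 43.6 FPKM thus came from the remaining marker. The part of these markers in the ligand values was not tested.

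The 6 ligand genes summed to 17.9, 16.5 and 49.4 FPKM in CD24− cells, against 9.54, 9.24 and 12.9 FPKM in irradiated CD24+ cells. Egf made up 1.98%, 0.850% and 0.213% of that sum in the CD24− libraries, against 30.8%, 38.6% and 19.1% in the irradiated CD24+ libraries. Hbegf held 28.4% ± 2.49 of the sum in CD24− cells and 11.9% ± 1.95 in irradiated CD24+ cells (SD, n = 3 each), without overlap. The share of Tgfa, 31.8% ± 13.7 in CD24− and 29.6% ± 5.93 in irradiated CD24+ cells, overlapped between the gates. Exact permutation tests of such shares cannot go below p = 0.10 with 3 against 3 libraries and were not run.

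**Figure D2:**
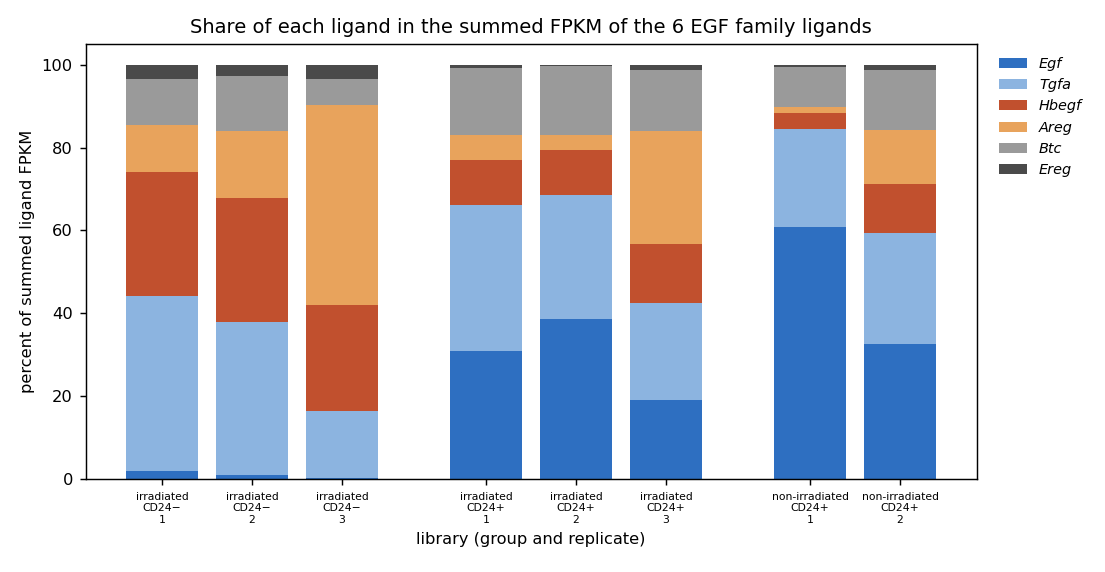
Percent of the summed FPKM of the 6 ligand genes held by each ligand, 1 bar per library, in the order irradiated CD24−, irradiated CD24+ and non-irradiated CD24+. Egf fills at most 1.98% of a CD24− bar and from 19.1% to 60.9% of a CD24+ bar, and Areg fills 48.3% of the bar of CD24− replicate 3.

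Of the receptors, Erbb2, the partner receptor without a ligand of its own, stood at 41.9, 38.7 and 31.4 FPKM in CD24− cells, against 9.54, 10.5 and 6.66 FPKM in irradiated CD24+ cells. The 2 ranges were far apart, and the log2 fold change was 1.97 ± 0.24 (SE, adjusted p = 5.85e-05). Mien1, whose exons overlap Erbb2 on the opposite strand, averaged 87.4 and 42.9 FPKM in these groups with a log2 fold change of 1.006, and unstranded reads of the overlap cannot be told apart. Erbb3, the receptor with weak kinase activity, stood at 82.2, 89.0 and 66.5 FPKM in CD24− cells, against 22.4, 25.3 and 17.5 FPKM in irradiated CD24+ cells. In both gates replicate 3 was the lowest library for Erbb2 and Erbb3, as it was for Egf, and the groups did not overlap. Its log2 fold change was 1.82 ± 0.22 (SE, adjusted p = 5.82e-05).

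Egfr, the receptor for all 6 ligands, stood at 5.21, 4.09 and 7.76 FPKM in CD24− cells, against 3.13, 3.62 and 3.53 FPKM in irradiated CD24+ cells. The groups did not overlap, but the log2 fold change of 0.56 ± 0.23 (SE) just missed the threshold (adjusted p = 0.0539) and was close to the median of all genes. In the 6-library limma fit with replicate number as a block, added after the data were seen, Egfr was called higher (adjusted p = 0.0243). The receptor genes therefore differed in proportion: the ratio of Erbb2 to Egfr in FPKM was 7.18 ± 2.80 in CD24− cells and 2.61 ± 0.630 in irradiated CD24+ cells (SD, n = 3 each), without overlap, whereas the ratio of Erbb3 to Erbb2 was 2.13 ± 0.170 in CD24− cells and 2.46 ± 0.141 in irradiated CD24+ cells, also without overlap but closer together.

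Lrig1, which encodes a membrane protein that lowers ErbB receptor levels, was called lower, where Erbb2 and Erbb3 were called higher and Egfr was not called. Lrig1 stood at 17.2, 12.5 and 8.38 FPKM in CD24− cells, against 24.2, 25.05 and 28.03 FPKM in irradiated CD24+ cells. The groups did not overlap, and the log2 fold change was -1.02 ± 0.25 (SE, adjusted p = 0.00470). Lrig1 held 66.8%, 48.3% and 32.5% of its irradiated CD24+ mean in CD24− replicates 1, 2 and 3, far more than Paneth markers did. Stem cell markers (8 of 8 in the table, none at 0, Lrig1 not among them) summed to 475, 336 and 67.6 FPKM in those libraries, against 1299, 1189 and 1045 FPKM in irradiated CD24+ cells, and their part in the Lrig1 difference was not tested. Slc25a26, on the opposite strand, was low at 4.18 and 2.65 FPKM and was called higher (log2 fold change 0.50). The ratio of Lrig1 to Egfr was 2.48 ± 1.22 in CD24− cells and 7.54 ± 0.540 in irradiated CD24+ cells (SD, n = 3 each), without overlap.

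**Figure D3:**
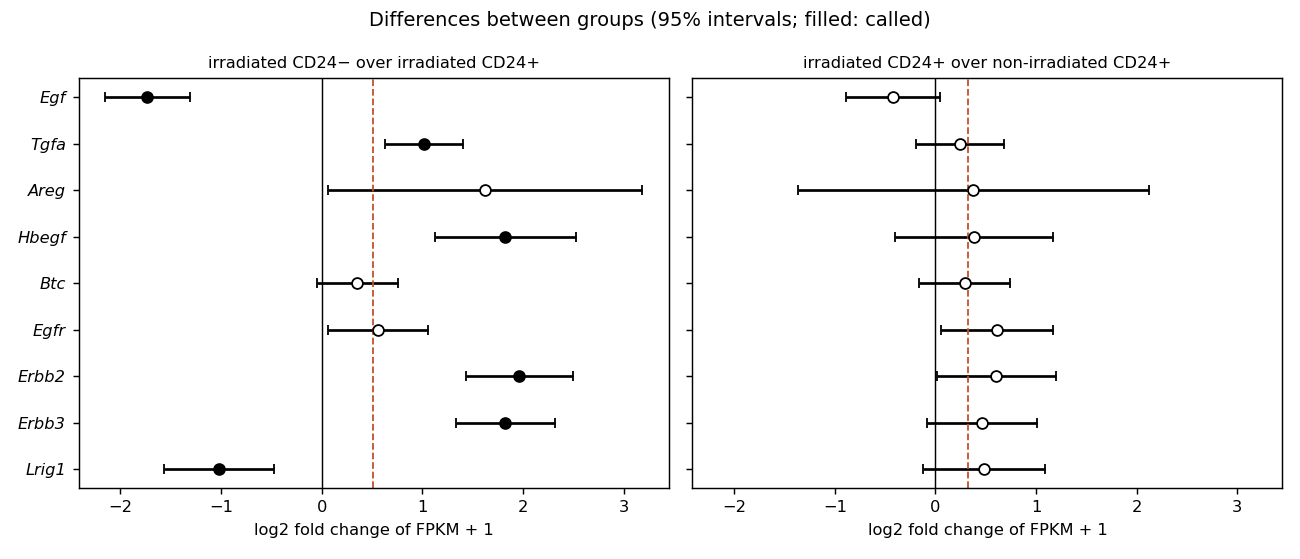
Log2 fold changes of FPKM + 1 with 95% intervals from limma for the 9 tested genes, irradiated CD24− over irradiated CD24+ cells on the left and irradiated over non-irradiated CD24+ cells on the right. Filled points were called at an adjusted p under 0.05, and the dashed line is the median of all genes, 0.51 on the left and 0.32 on the right; 6 genes are filled on the left and 0 on the right.

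The counts of calls moved with the scaling. As deposited, 5439 genes were called higher and 813 lower in CD24− cells. Rescaling each library to the same sum (TPM) gave 10000 and 260 with a median log2 fold change of 1.60, median-of-ratios scaling gave 3241 and 3253 with a median of -0.04, and quantile normalization gave 2821 and 3408 with a median of -0.07. Rescaling to the same sum over genes other than 24 Paneth products moved the median to 0.70. Under all 4 of these scalings Egf was called lower and Tgfa, Hbegf, Erbb2 and Erbb3 were called higher, with Tgfa from 0.46 to 2.08 and Erbb3 from 0.73 to 3.06. Lrig1 was called lower under 3 of them and stood at 0.18 (adjusted p = 0.529) as TPM, or -1.42 relative to that setting's median gene. Relative to the median gene of each of the 5 scalings Lrig1 lay between -1.75 and -1.42, and Egf lay below it and Hbegf, Erbb2 and Erbb3 above it in each. Btc turned to -0.07 with median-of-ratios scaling.

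**Figure D4:**
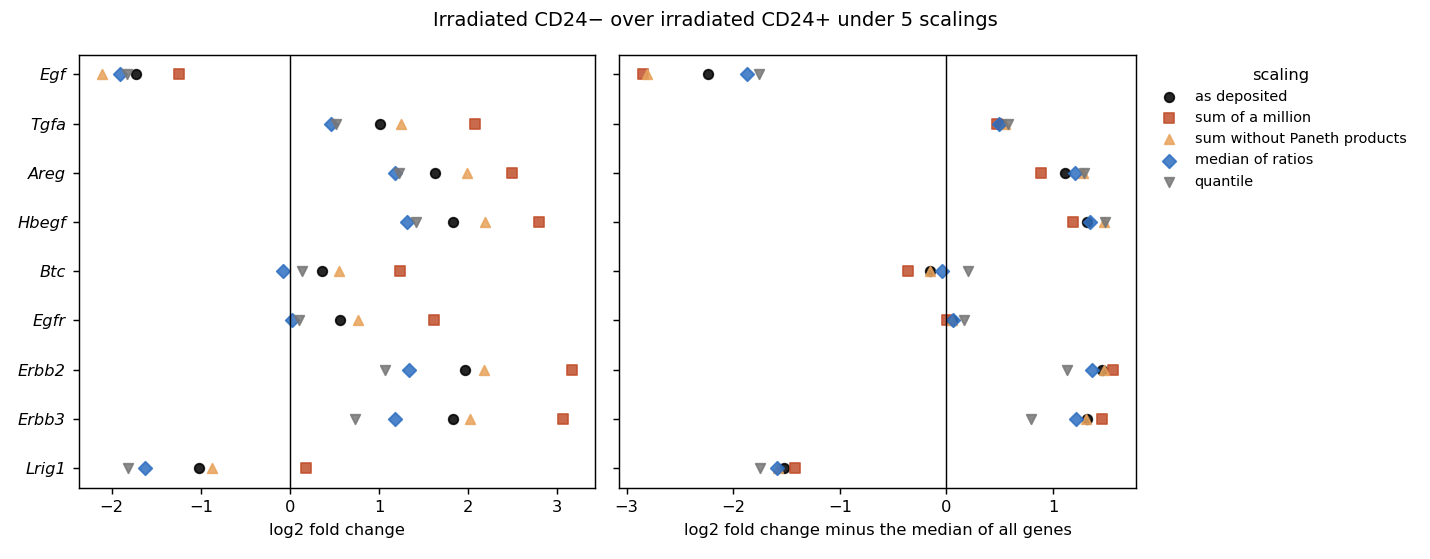
Log2 fold changes of irradiated CD24− over irradiated CD24+ cells for the 9 tested genes under 5 scalings, as computed (left) and after subtracting the median of all genes (right). On the right the 5 symbols of a gene lie closer together, except those of Egf, which lie further apart. Egf and Lrig1 stay left of 0 there and Tgfa, Areg, Hbegf, Erbb2 and Erbb3 stay right of 0, while Egfr and Btc lie near 0.

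The rest of the pathway was described through 6 further gene lists. Most other EGF family genes were low: Nrg2, Nrg3 and Erbb4 were listed at 0 in every library, and Epgn and Nrg1 reached at most 0.0672 and 0.0986 FPKM. The remaining Nrg4, an Erbb4 ligand, averaged 2.57 ± 0.401 FPKM in CD24− cells and 1.52 ± 0.295 in irradiated CD24+ cells (SD, n = 3 each) and was called higher (log2 fold change 0.51 ± 0.17 SE, adjusted p = 0.0263), a difference equal to that of the median gene. This call was lost in 6 alternative settings, among them median-of-ratios scaling (0.0666, adjusted p = 0.642) and quantile normalization (adjusted p = 0.0760), and 4 in which 1 library was left out. Among genes for release and maturation of ligands, 6 of 9 tested were called higher and 0 lower, against 48.6% and 7.27% of all genes. Frmd8, which stabilises the sheddase complex, averaged 36.9 ± 3.94 FPKM in CD24− and 5.27 ± 0.328 in irradiated CD24+ cells (log2 fold change 2.59 ± 0.21 SE, adjusted p = 7.53e-06). Rhbdl2, a rhomboid protease, averaged 11.9 ± 5.34 and 1.94 ± 0.994 FPKM in these groups (2.12 ± 0.32). Adam10, a sheddase, averaged 36.5 ± 2.99 and 17.3 ± 0.942 FPKM (1.03 ± 0.22), and Rhbdf2, an iRhom that matures the sheddase Adam17, averaged 7.96 ± 0.350 and 3.596 ± 0.244 FPKM (0.96 ± 0.18).

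Of 16 tested inhibitors and downregulation genes of the receptors, 9 were called higher and 0 lower, against 48.6% and 7.27% of all genes, with a median log2 fold change of 0.55 against 0.51 for all genes. As a list they were close to the background, and by median-of-ratios scaling 4 were called higher and 4 lower. Cblc, a ubiquitin ligase of the CBL family, averaged 54.2 ± 3.94 FPKM in CD24− and 12.2 ± 0.428 in irradiated CD24+ cells (2.06 ± 0.21 SE). Errfi1, the feedback inhibitor also called MIG6, stood at 9.11, 14.2 and 21.8 FPKM in CD24− cells, against 4.07, 4.65 and 4.80 FPKM in irradiated CD24+ cells (1.47 ± 0.29 SE). Socs4, a suppressor of cytokine signalling, had 1.17 ± 0.19, and Hgs, of the endosomal sorting machinery, 1.05 ± 0.22. The Lrig1 relatives Lrig2 and Lrig3 had log2 fold changes of 0.50 ± 0.17 (adjusted p = 0.0224) and 0.89 ± 0.23 (adjusted p = 0.00580), opposite in sign to Lrig1. The Lrig2 value was close to the 0.51 of the median gene, so its sign depends on the scaling. Both relatives were chosen for mention after their values were seen.

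Downstream, 14 of 20 adaptors and RAS-ERK kinases were called higher and 0 lower, against 48.6% and 7.27% of all genes, with a median of 0.74 against 0.51. The largest was Ksr1, a scaffold of the cascade, at 11.6 ± 1.74 FPKM in CD24− and 1.60 ± 0.370 in irradiated CD24+ cells (2.28 ± 0.23 SE), followed by the MEK genes Map2k2 (1.97 ± 0.27) and Map2k1 (1.55 ± 0.22) and the ERK gene Mapk3 (1.26 ± 0.22). In the PI3K-AKT arm 6 of 11 were called higher and 0 lower, with a median of 0.58, close to all genes. These included the regulatory subunit gene Pik3r2 (1.39 ± 0.18), the catalytic subunit gene Pik3cb (0.75 ± 0.18) and the kinase gene Pdpk1 (0.85 ± 0.17). Genes known to respond to ERK activity did not move as a block, with 6 of 15 called higher, 2 lower and a median of 0.18. Epha2, a receptor kinase, stood at 10.2, 7.14 and 19.4 FPKM in CD24− cells, against 1.44, 1.59 and 2.64 FPKM in irradiated CD24+ cells (2.11 ± 0.36 SE, adjusted p = 0.000503). Dusp5, a nuclear ERK phosphatase, averaged 6.79 ± 2.43 and 2.06 ± 0.392 FPKM (1.32 ± 0.24).

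Dusp6, the cytoplasmic ERK phosphatase, stood at 5.76, 10.3 and 49.3 FPKM in CD24− cells, against 3.85, 3.97 and 7.18 FPKM in irradiated CD24+ cells. Replicate 3 was the highest of each gate, as for Areg, and the groups overlapped. Dusp6 was called higher by a narrow margin (1.43 ± 0.57 SE, adjusted p = 0.04997), and without CD24− replicate 3 its log2 fold change was 0.59 (adjusted p = 0.0961). In all, 10 alternative settings ended the call, with adjusted p from 0.0899 to 0.302, among them median-of-ratios and quantile scaling, no filter and the robust fit. The 2 genes called lower were Phlda1, at 2.05, 1.499 and 5.64 FPKM in CD24− cells, against 9.05, 9.76 and 8.77 FPKM in irradiated CD24+ cells (-1.46 ± 0.30 SE, adjusted p = 0.00179), and Myc, at 5.86 ± 2.76 and 12.3 ± 1.91 FPKM (-1.03 ± 0.32, adjusted p = 0.0178). Phlda1 encodes a pleckstrin homology protein and Myc a growth transcription factor, and Myc was chosen for mention after its values were seen. As TPM, 10 of the 15 ERK targets were called higher and 0 lower, where 10000 of all 11190 genes were called higher and 260 lower. The median of the 15 was -0.573 relative to the median gene as TPM, and Phlda1 was at -0.438 (adjusted p = 0.226). With median-of-ratios scaling the counts of higher and lower calls were 4 and 3 of 9 for ligand release, 4 and 4 of 16 for inhibitors, 6 and 1 of 20 for RAS-ERK, 1 and 3 of 11 for PI3K-AKT and 2 and 4 of 15 for ERK targets, where 3241 and 3253 of all genes were called.

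**Figure D5:**
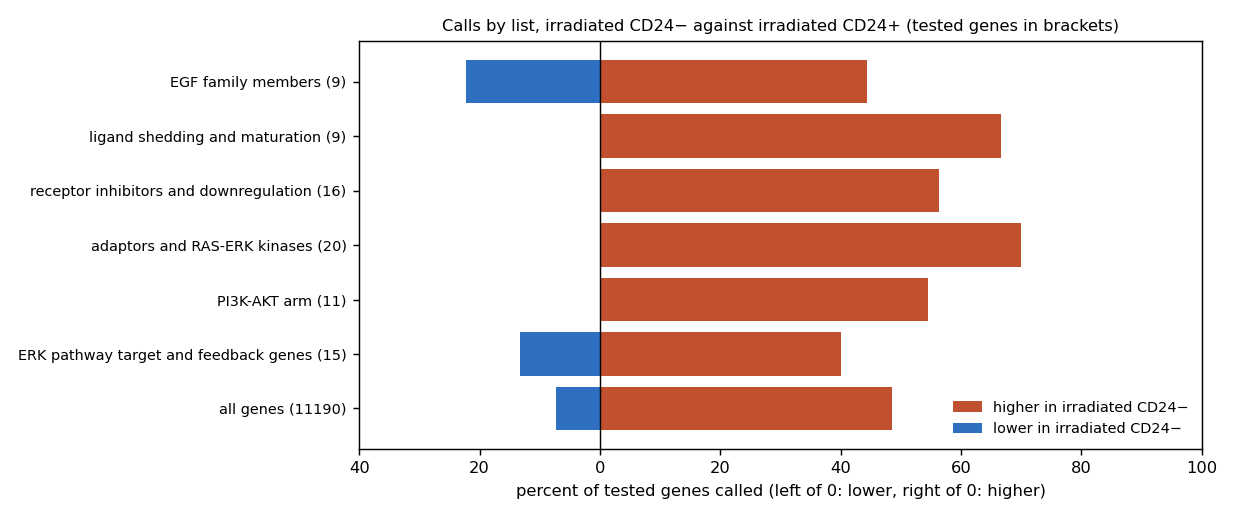
Percent of tested genes called higher (right of 0) and lower (left of 0) in irradiated CD24− than in irradiated CD24+ cells, for the 9 EGF family genes, 5 pathway lists and all 11190 genes, with the number tested in brackets. The bars for higher calls run from 40% to 70% around the 48.6% of all genes, and lower calls appear among the EGF family genes, the ERK targets and all genes.

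The second comparison asked what irradiation changed inside the Paneth gate. No EGF family gene passed: limma called 0 of 9 higher and 0 lower, with 2 at an unadjusted p under 0.05, and across all 11190 genes it called 0% higher and 0% lower, with 1424 at an unadjusted p under 0.05. The median log2 fold change was 0.38 over the 9 genes and 0.32 over all genes. The smallest p-values belonged to 2 receptor genes and Egf.

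Egfr stood at 3.13, 3.62 and 3.53 FPKM in irradiated CD24+ cells, against 1.40 and 2.48 FPKM in non-irradiated CD24+ cells. The irradiated libraries were all higher, by 0.61 ± 0.25 on the log2 scale (SE, adjusted p = 0.348 in limma). Erbb2 stood at 9.54, 10.5 and 6.66 FPKM in irradiated CD24+ cells, against 4.07 and 7.11 FPKM in non-irradiated CD24+ cells. Its ranges overlapped, and the log2 fold change was 0.60 ± 0.27 (SE, adjusted p = 0.348 in limma). Egf stood at 2.94, 3.56 and 2.47 FPKM in irradiated CD24+ cells, against 5.36 and 3.42 FPKM in non-irradiated CD24+ cells. Irradiated replicate 2 lay above non-irradiated replicate 2, and the log2 fold change was -0.42 ± 0.21 (SE, adjusted p = 0.348), or -0.74 relative to the median gene.

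Lrig1 stood at 24.2, 25.05 and 28.03 FPKM in irradiated CD24+ cells, against 15.9 and 20.7 FPKM in non-irradiated CD24+ cells, without overlap. Its log2 fold change was 0.48 ± 0.28 (SE, adjusted p = 0.348), and the summed stem cell markers were 1299, 1189 and 1045 FPKM in the irradiated and 574 and 882 FPKM in the non-irradiated CD24+ libraries. Erbb3 was at 22.4, 25.3 and 17.5 FPKM in irradiated CD24+ cells, against 13.4 and 17.5 FPKM in non-irradiated CD24+ cells (0.46 ± 0.25 SE). The 4 remaining tested ligands had log2 fold changes from 0.24 ± 0.20 (Tgfa) to 0.38 ± 0.36 (Hbegf), near the median gene. Non-irradiated replicate 1 held the lower value of that group for every member but Egf, for which it held the higher one.

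For Areg the non-irradiated libraries were at 0.129 and 1.38 FPKM and for Hbegf at 0.330 and 1.26 FPKM, against 0.353 to 3.53 and 0.984 to 1.83 FPKM in irradiated CD24+ cells, and both genes overlapped between the groups. Without non-irradiated replicate 2, which leaves replicate 1 as the lone control assumed to vary like the other groups, Egf was called lower (-0.68, adjusted p = 0.0379) and Egfr (0.88, adjusted p = 0.0386) and Erbb2 (0.94, adjusted p = 0.0264) higher, in a fit that called 5172 of 11156 genes higher. Without non-irradiated replicate 1 none of the 9 genes was called. The pathway lists had 0 calls as well, with 5 of 9 ligand release genes, 3 of 16 inhibitors, 0 of 20 RAS-ERK genes, 1 of 11 PI3K-AKT genes and 1 of 15 ERK targets at an unadjusted p under 0.05. Led by smallest p within each list were Cblc (0.66 ± 0.24 SE), Frmd8 (0.65 ± 0.24), Adam10 (0.65 ± 0.24) and Pik3r2 (0.50 ± 0.20), and by Ccnd1, the cyclin D1 gene, at 18.5, 20.9 and 20.8 FPKM in irradiated CD24+ cells, against 6.10 and 11.9 FPKM in non-irradiated CD24+ cells (1.14 ± 0.29 SE, adjusted p = 0.348 in limma). Ccnd1 did not overlap between the groups. Nrg4 (0.32 ± 0.19), Socs5 (0.38 ± 0.17), Nras (0.50 ± 0.24), Hras (0.48 ± 0.26) and Dusp4 (0.57 ± 0.26) were the other genes named by p.

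A last comparison, of the CD24− group with the non-irradiated CD24+ group, differs in both gate and irradiation and shares its libraries with both others, so it adds no independent support. Here 7 of 9 members were called higher and 1 (Egf) lower, against 65.7% and 4.99% of all genes, whose median difference was 0.88 on the log2 scale. Egf stood at -2.15 ± 0.21 (SE, adjusted p = 1.78e-05), Erbb2 2.57 ± 0.27 (adjusted p = 2.26e-05), Erbb3 2.29 ± 0.25, Hbegf 2.21 ± 0.36, Tgfa 1.26 ± 0.20 and Egfr 1.17 ± 0.25 (adjusted p = 0.00176). Areg, at 1.995 ± 0.79 (SE), was close to the threshold (adjusted p = 0.0416), and it was 1.03 without CD24− replicate 3 (adjusted p = 0.0622). Btc, at 0.65 ± 0.21 (adjusted p = 0.0153), lay below the median gene. Over the alternative settings Areg was called in 10 of 18, Btc in 14 of 18, Egfr in 16 of 19 and Tgfa in 18 of 19. Egf, Erbb2, Erbb3 and Hbegf were called in all. The Egfr call was lost by median-of-ratios scaling (adjusted p = 0.199), quantile normalization (adjusted p = 0.0767) and array weights (adjusted p = 0.0660). Lrig1 was not called, with 17.2, 12.5 and 8.38 FPKM in CD24− cells, against 15.9 and 20.7 FPKM in non-irradiated CD24+ cells (-0.54 ± 0.28 SE, adjusted p = 0.102). CD24− replicate 1 lay between the non-irradiated libraries for Lrig1, so the groups overlapped. The call for Lrig1 turned on the setting. As TPM it was called higher in CD24− cells (0.80, adjusted p = 0.0209, with a value of -1.26 after subtracting that setting's median). It was called lower by median-of-ratios scaling (-1.58, adjusted p = 0.000495), by quantile normalization (-1.72, adjusted p = 0.000372) and without CD24− replicate 1 (-0.77, adjusted p = 0.0340).

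Pathway counts against non-irradiated CD24+ cells were 6 of 9 higher and 0 lower for ligand release, 12 and 0 of 16 for inhibitors, 19 and 0 of 20 for RAS-ERK, 9 and 0 of 11 for PI3K-AKT and 7 and 1 of 15 for ERK targets, with Nrg4 also higher (0.83 ± 0.19 SE), where 65.7% of all genes were called higher and 4.99% lower. By median-of-ratios scaling, which called 3024 of all genes higher and 2873 lower, the higher and lower counts were 6 and 3 for ligand release, 3 and 5 for inhibitors, 5 and 1 for RAS-ERK, 1 and 4 for PI3K-AKT and 3 and 3 for ERK targets, and Nrg4 was not called. The largest of each list were Frmd8 (3.24 ± 0.24), Cblc (2.72 ± 0.24), Ksr1 (2.59 ± 0.25), Pik3r2 (1.88 ± 0.20) and Epha2 (2.50 ± 0.40), and Phlda1 was the ERK target called lower (-1.19 ± 0.34, adjusted p = 0.00873), though neither as TPM (-0.0416) nor without non-irradiated replicate 1 (adjusted p = 0.0556). Among ERK targets Ccnd1 (1.53 ± 0.29) and Ier3 (1.21 ± 0.23) were called higher here, and neither Dusp6 (1.41 ± 0.63, adjusted p = 0.0653) nor Myc (-0.39 ± 0.36, adjusted p = 0.337) was called.

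Over the 8 libraries, the genes whose log2 levels followed Egf most closely among those at 5 FPKM or more in 2 libraries were Agt, the angiotensinogen gene (Pearson's r = 0.994), Tfpi, an inhibitor of coagulation (0.991), and Gm15308 (0.988). Agt averaged 1.22 FPKM in CD24−, 23.6 in irradiated CD24+ and 42.8 in non-irradiated CD24+ cells. Those closest to Erbb3 were Ptgr2, Phgr1 and Cdc14b (0.998 each), and those closest to Egfr were Daam1 (0.987), Asb6 and Ttpal (0.983 each). For Lrig1 they were Hook1 (0.995), Cd9 (0.984) and Cdo1 (0.980). These are correlations picked as the highest of about 7827 genes over libraries that fall into separate groups, and they describe likeness of pattern only.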

How the data were processed

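RNA of 8 sorted samples was made into TruSeq RNA v2 libraries, a kit that keeps no strand, per the labels' protocols. The authors deposited 1 table of FPKM values for 24015 entries, made with TopHat2 2.1.0, StringTie 1.3.4 and mm9, per the submitters' processing notes. The table holds no counts, and fragment numbers were only approximated from the smallest FPKM steps of 5378 single-transcript genes. FPKM is relative to all mapped fragments of a library, and other scalings were therefore tried. Repeated symbols (2) were summed. Genes with at least 1 FPKM in at least 2 libraries (11190) were tested with limma 3.58.1 (R 4.3.3), with an intensity trend, on log2(FPKM + 1), all 3 groups in 1 fit. Every adjusted p is Benjamini-Hochberg over all genes tested in the fit that gave it, 11190 in the main fit. The code was tested on simulated data. A gene was called at an adjusted p under 0.05.

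The 10 genes, the pathway lists and the marker lists were chosen with earlier results of these data known. From each pathway list the text names up to 4 called genes with the largest change, or up to 2 with the smallest p where none was called; 1 gene this rule selects is counted in its list but not reported here. Groups and replicate numbers came from the labels, which do not tie a number to a mouse. Same-numbered irradiated CD24− and CD24+ libraries deviated together from their group means (r = 0.366, 0.231 and 0.402 for replicates 1, 2 and 3), so a fit of these 6 libraries with replicate number as a block, added after seeing the data, is given where it changes a call. Alternatives were another pseudocount, filters, 4 scalings, array weights, a robust fit, a fit of only the groups compared, the block and leaving out each library. Promoters are RefSeq windows on GRCm38.p6. Figures were drawn with matplotlib 3.10.9 (Python 3.11.15).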

Additional observations from a re-analysis of the deposited data

How the results depend on the processing

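Within irradiated mice, Egf stayed lower (19 of 19 alternatives) and Tgfa, Hbegf, Erbb2 and Erbb3 higher (20 of 20 each) in CD24− cells, and Lrig1 was called lower in 19 of 20, turning to 0.18 as TPM. Areg was called in 8 of 19, Egfr in 9 of 20 and Btc in 3 of 19. Against the 4 members called higher and 2 lower, TPM gave 7 and 1, scaling without Paneth products 7 higher, the filter at 5 FPKM 1 lower (Egf, Areg and Btc then drop out), and leaving out 1 library 4 to 6 higher and 2 lower. With replicate number as a block over the 6 irradiated libraries 6 were called higher, Areg at an adjusted p of 0.000207 and Egfr at 0.0243, and the block over all 8 libraries gave 1.92e-06 and 0.0346; it changed no other member's call in that comparison. All genes called there numbered 6252, 10260 as TPM, and 5064 to 7055 without 1 library. Btc turned to -0.0747 by median-of-ratios and Mapk3 to -0.0625 by quantile scaling. Between irradiated and non-irradiated CD24+ cells, 0 genes were called, against 1 with no filter, 3 by median-of-ratios, 4 by quantile, 5 with only those groups, 92 with the replicate block (2 shared numbers, r = 0.232 and -0.05) and 0 to 5185 without 1 library, with 0 to 2 members higher and 0 to 1 lower. There Tgfa turned to -0.0898 and -0.0727 by median-of-ratios and quantile scaling, Areg (0.37) to -0.38 with the block, -0.17 without irradiated CD24+ replicate 3 and -0.16 without non-irradiated replicate 1, its highest being 0.911 without non-irradiated replicate 2, and Hbegf to -0.0012 without non-irradiated replicate 1. Between irradiated CD24− and non-irradiated CD24+ cells, the 7 members higher became 3, 4 and 4 by median-of-ratios, quantile and array weights and 5 to 7 without 1 library, and the 1 lower became 2, 2, 0 with the 5 FPKM filter and 1 to 2 without 1 library. All genes there numbered 7907, and 6109 to 8748 without 1 library; Btc turned to -0.0248 by median-of-ratios and Lrig1 to 0.80 as TPM. Ereg was tested only with no filter (17604 genes), at 0.76 against irradiated CD24+ cells (adjusted p = 0.0323 in limma). The causes of these changes were not tested.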
